A study of Mus musculus with 108 samples.

Results

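The liver of C3HeB/FeJ mice, a C3H substrain, was compared with the liver of 5 other inbred strains, C57BL/6J, A/J, AKR/J, DBA2/J and 129S2. C3HeB/FeJ liver was read on 3 arrays, out of 18 liver arrays, in a series of 36 groups of 3 arrays. The study read 6 tissues of the 6 strains, namely liver, kidney, lung, heart, brain and testis, on Affymetrix mouse expression arrays, with 3 arrays for each strain and tissue. All animals were males of 11 to 14 weeks, and no treatment or engineered allele is named in the labels. By the labels the liver groups differed in strain alone: 3 C3HeB/FeJ males against 3 males of each other strain, 15 in all. RNA came from whole tissue. The sample names give 1 animal per array, although the labelling protocol speaks of pools, so p values measure the spread between these arrays. Values are log2 levels after RMA, which turns the probe intensities of each array into 1 level per probe set, and a difference of 1 is a doubling.

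The adult liver is made mostly of hepatocytes, which secrete plasma proteins, make bile acids, store and burn lipid and oxidise hormones and foreign compounds, together with resident macrophages (Kupffer cells), sinusoidal endothelium, stellate cells and bile duct cells. Inbred strains differ at many loci at once, so a gene of 1 strain can stand apart from all others or be shared with some of them. C3H mice are known as a strain with low hepatic activity of type 1 deiodinase, the enzyme encoded by Dio1 that turns the thyroid prohormone into its active form, and as a strain prone to liver tumours.

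The tissue label fitted the markers. The 9 hepatocyte markers measured, among them Alb, Ttr and Hnf4a, averaged 13.05 to 13.14 on the C3HeB/FeJ arrays and 12.96 to 13.27 on the 15 others. Array medians in liver ran from 4.953 to 5.005, and replicate arrays correlated across probe sets at 0.995 to 0.996. On a different correlation measure, each of the 18 liver arrays was nearest to one of the same strain. On that measure the C3HeB/FeJ arrays correlated with their nearest array at 0.489 to 0.641. With 3 arrays a group, the number of arrays limits the precision of every value.

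Each of 18194 genes was represented by its single-gene probe set with the highest mean over the arrays of all tissues. A gene was called apart when C3HeB/FeJ lay on the same side of each of the 5 other strains, with limma's Benjamini-Hochberg adjusted p under 0.05 in all 5 comparisons. By this rule 30 genes (0.165% of those tested) were above all 5 strains and 31 (0.17%) were below all 5. A distance of at least 1 log2 unit to the nearest other strain mean, called the gap here, was reached by 4 genes above (0.022%) and 7 below (0.0385%). The same count made for each strain in turn gave 329 genes above and 230 below for C57BL/6J, 102 and 123 for 129S2, 97 and 103 for DBA2/J, 85 and 86 for A/J, and 52 and 73 for AKR/J. C3HeB/FeJ liver thus had the fewest genes of its own among these 6 strains, by count.

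Many more genes differed from the mean of the 5 other strain means: 714 were higher (3.92%) and 539 lower (2.96%), and the median difference over all genes was 0.00424. Of these, 49 were higher and 67 lower by at least 1. Against single strains, 13.4% of genes differed from C57BL/6J, 9.8% from 129S2, 7.6% from A/J, 6.99% from AKR/J and 6.46% from DBA2/J. With C57BL/6J left out of the mean, an alternative chosen after seeing the data, 660 genes were higher (3.63%) and 506 lower (2.78%). Of these, 551 and 417 were the same genes as before. Without C3HeB/FeJ array 1 the counts were 433 higher than the mean of 5 and 18 below all 5. Without DBA2/J array 3, 19 genes were below all 5.

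The 3 C3HeB/FeJ arrays did not overlap the 15 others for 57 of the 61 genes, 29 above and 28 below. The exceptions were Gatm, Pctp, Zfp839 and Arap3. Over all genes, 123 (0.676%) read higher and 91 (0.5%) read lower on all 3 C3HeB/FeJ arrays than on every other array, and the rule that chose the 61 genes uses the same arrays. The narrowest gaps among the called genes were 0.23 above (Cdhr5) and 0.22 below (Entpd5), and the medians were 0.53 and 0.58. At the size rule of 1, Ssh1 (1.04) and Kctd13 (1.05) lay just inside and Tspyl4 (0.97) and As3mt (0.95) just outside.

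Dio1 lay farthest from all other strains. It read 4.79, 4.11 and 5.92 on the C3HeB/FeJ arrays, and 9.52 to 11.59 with a median of 10.85 on the other 15. No array overlapped, and the lowest other array, of 129S2, was above the highest C3HeB/FeJ array by several log2 units. The strain means were 4.94 ± 0.913 (SD, n = 3) in C3HeB/FeJ, 9.92 ± 0.50 in 129S2, 10.66 ± 0.167 in A/J, 10.88 ± 0.121 in C57BL/6J, 10.98 ± 0.298 in DBA2/J and 11.56 ± 0.0241 in AKR/J. The difference from the mean of 5 was -5.86 (SE 0.239, limma adjusted p = 1.25e-11), and 129S2 was the nearest strain. The C3HeB/FeJ level was close to the array medians and is not shown to be above background, so no fold is given. The C3HeB/FeJ SD of 0.913 was the widest of the 6 strains, and the call held without any single array and under all 26 alternative settings. Dio1 was read by 1 probe set.

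Dio1 was also below all 5 strains in kidney, the tissue with the next highest Dio1 levels, at 6.37 ± 0.147 against strain means of 8.30 to 9.48 (difference -2.44). In brain, heart, lung and testis every strain mean lay between 3.33 and 4.75. Other genes of thyroid hormone action moved less. Of 17 genes of thyroid hormone action, Dio1 included, 2 were higher and 4 lower than the mean of 5, and Dio1 was among the 4. The list was chosen after Dio1 had been seen. Its median difference was near 0, and Dio1 was the only member apart from all 5. Dio2, the other activating deiodinase gene, read 3.99 in C3HeB/FeJ and 3.89 to 4.09 elsewhere. Thrsp, a thyroid hormone responsive lipogenic gene, differed by -0.60 (SE 0.470) and the receptor genes Thra and Thrb by 0.14 (SE 0.0628) and -0.20 (SE 0.0760), and none of the 3 passed. On the C3HeB/FeJ arrays Thrsp read 13.19, 9.62 and 12.92 against 11.28 to 13.38 elsewhere, so only array 2 lay outside that range. Klf9, a transcription factor gene that responds to thyroid hormone and glucocorticoid, was lower by -0.70 (SE 0.134, adjusted p = 0.00245), and Crym, which encodes a thyroid hormone binding protein, was higher by 1.78 but shared its level with DBA2/J and A/J.

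Hsd17b13 had the widest gap among genes above all 5, and its 2 probe sets went opposite ways. It encodes a hydroxysteroid dehydrogenase of the hepatocyte lipid droplet. On the probe set that represented the gene, the C3HeB/FeJ arrays read 8.70, 9.37 and 9.05, and the 15 others 4.75 to 5.29 with a median of 4.92. The difference was 4.06 (SE 0.110, adjusted p = 8.06e-14), and the groups did not overlap. The 5 other strain means, 4.87 to 5.08, were close to the array medians and are not shown to be above background, so no fold is given. On the other probe set the C3HeB/FeJ arrays read 7.02, 7.32 and 7.13, and the 15 others 11.64 to 12.19 with a median of 11.88. There C3HeB/FeJ was lower than all 5 strains by -4.72 (SE 0.0668, adjusted p = 6.99e-19 over all probe sets), a 26.4-fold lower level, and the groups again did not overlap.

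Both Hsd17b13 probe sets were therefore apart from all 5 strains, the tested one upward and the other downward, and these arrays give no single direction for the gene. Among 34945 single-gene probe sets, 63 (0.18%) were above all 5 strains and 50 (0.143%) below, in 93 genes, and Hsd17b13 was the only gene with probe sets apart in both directions. In kidney the tested probe set was above all 5 (6.08 ± 0.103 against 5.08 to 5.36). In brain, heart, lung and testis it read 4.20 to 5.25 in C3HeB/FeJ and 4.16 to 5.40 in the others. The second probe set read between 3.08 and 4.10 in every strain mean outside liver. What part of the transcript each probe set reads, and whether strain sequence differences lie under its probes, was not tested.

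**Figure D1:**
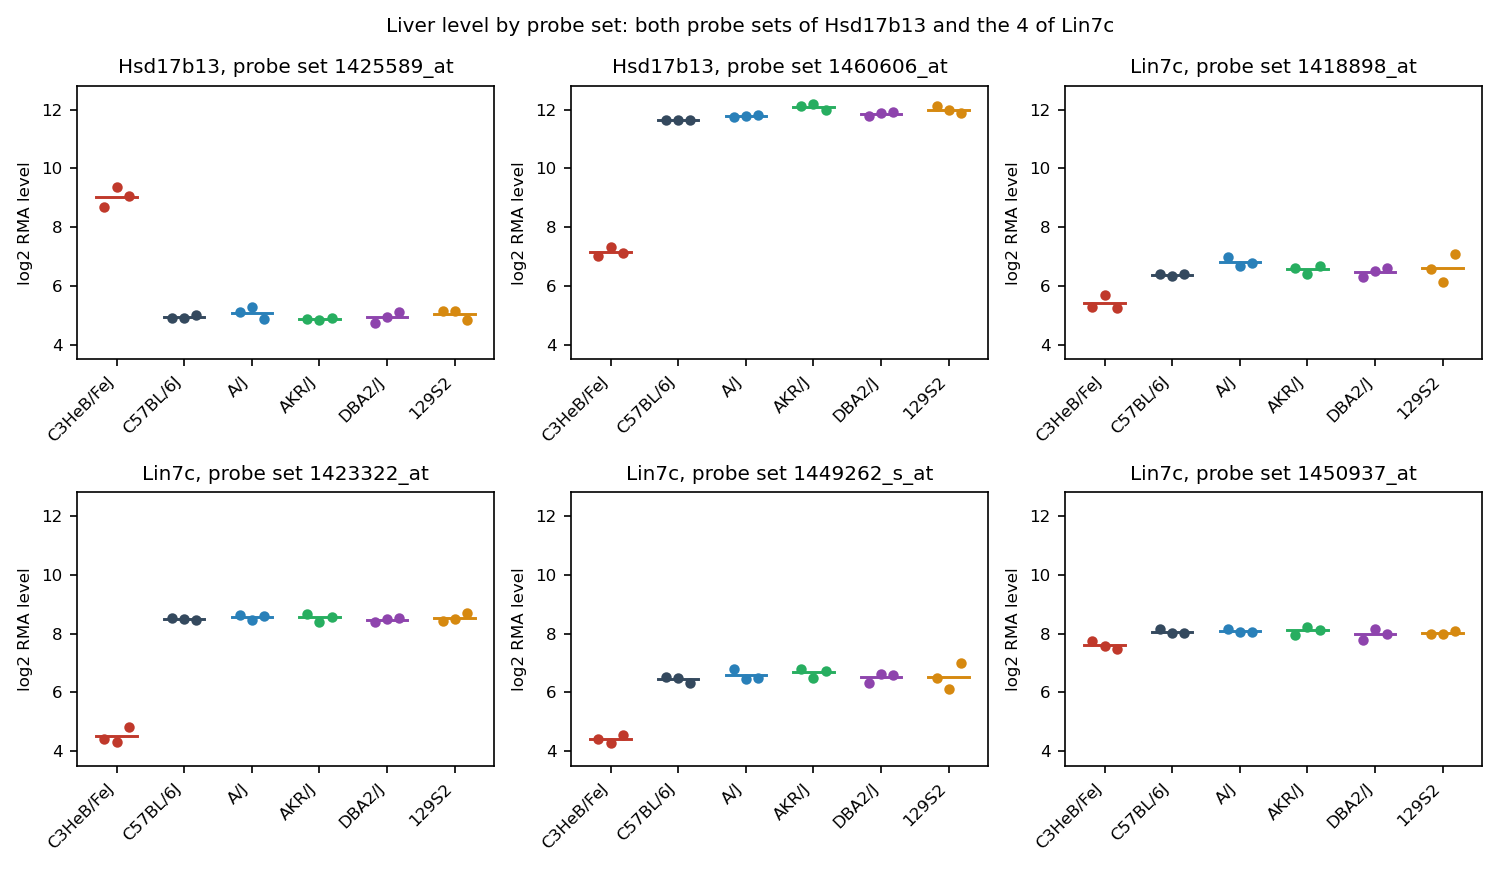
Log2 RMA level on each liver array (points) with strain means (lines), n = 3 arrays per strain, for both probe sets of Hsd17b13 and the 4 of Lin7c, all on 1 scale. C3HeB/FeJ read 9.04 on 1 Hsd17b13 probe set and 7.16 on the other, against means of 4.87 to 5.08 and 11.65 to 12.10 elsewhere, and it was lower on all 4 Lin7c probe sets by different amounts.

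Lin7c, which encodes a polarity scaffold protein, showed a second kind of disagreement, in size. Its tested probe set differed by -0.44 (SE 0.0773, adjusted p = 0.00106), with arrays at 7.76, 7.57 and 7.49 against 7.79 to 8.24. The other 3 probe sets were also below all 5 strains, by -4.01 (SE 0.0855), -2.14 (SE 0.126) and -1.16 (SE 0.131). On the first of them C3HeB/FeJ read 4.41, 4.33 and 4.83, and the 15 others 8.38 to 8.69. The direction in liver was thus shared by all 4 Lin7c probe sets, and the differences ran from -0.44 to -4.01. On the probe sets with -4.01 and -2.14 the C3HeB/FeJ means, 4.52 and 4.42, lay under the array medians and are not shown to be above background. Outside liver the probe set with the widest difference was lower in every tissue (brain 4.58 against strain means of 9.74 to 9.84, for example). The probe set with -1.16 in liver was higher in C3HeB/FeJ testis, at 9.29 against 8.76 to 9.03.

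Of the 61 genes, 33 had 1 probe set and 28 had more, 63 further probe sets in all. For 22 of the 28 another probe set passed against the mean of 5 in the same direction, and for 8 another was itself apart from all 5: Aqp4, Fmn1, Amotl1, Slc26a1, Mpp7, Ccdc30, Pctp and Lin7c. For 5 no other probe set passed, and for Hsd17b13 it passed in the opposite direction. Ssh1 belonged to the 5: its 3 other probe sets differed by 0.18 (SE 0.0677), -0.11 (SE 0.0616) and -0.20 (SE 0.103). Adcy7 and Arap3 belonged to them too, and on the probe set brightest in liver these 2 genes differed by 0.03 and 0.06.

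The sequences next to the start sites of the leading genes are given for reference, for the 2 genes with the widest gap in each direction among those with a bright level (a C3HeB/FeJ mean of at least 6 for genes above, every other strain mean of at least 6 for genes below). They are the 250 bases before the annotated start in RefSeq's GRCm38.p6 assembly, which is the C57BL/6J sequence, read on the gene's own strand: Hsd17b13 at chr5:103977389-103977638 (minus strand), Olfml1 at chr7:107567183-107567432 (plus), Dio1 at chr4:107307169-107307418 (minus) and the first of 3 Ccdc30 starts at chr4:119415522-119415771 (minus). Capitals mark matches to AGGTCA (the core site of nuclear receptors, thyroid hormone receptors among them), TATAAA (the TATA box), CACGTG (the E-box) and CCAAT, on either strand, and no 2 matches overlapped.
Hsd17b13: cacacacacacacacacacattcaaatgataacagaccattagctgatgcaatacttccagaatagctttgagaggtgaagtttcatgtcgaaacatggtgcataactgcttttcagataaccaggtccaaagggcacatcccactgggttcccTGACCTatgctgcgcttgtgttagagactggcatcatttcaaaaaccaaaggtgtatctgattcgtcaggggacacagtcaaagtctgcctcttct
Olfml1: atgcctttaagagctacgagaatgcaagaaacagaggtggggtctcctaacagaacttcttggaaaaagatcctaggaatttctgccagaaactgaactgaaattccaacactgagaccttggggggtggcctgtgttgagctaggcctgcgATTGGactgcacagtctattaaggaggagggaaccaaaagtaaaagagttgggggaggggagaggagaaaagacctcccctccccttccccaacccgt
Dio1: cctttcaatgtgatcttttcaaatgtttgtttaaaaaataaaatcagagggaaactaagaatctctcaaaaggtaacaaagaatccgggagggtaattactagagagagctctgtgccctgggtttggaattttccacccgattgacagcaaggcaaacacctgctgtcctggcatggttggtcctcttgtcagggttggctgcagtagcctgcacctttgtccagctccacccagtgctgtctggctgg
Ccdc30: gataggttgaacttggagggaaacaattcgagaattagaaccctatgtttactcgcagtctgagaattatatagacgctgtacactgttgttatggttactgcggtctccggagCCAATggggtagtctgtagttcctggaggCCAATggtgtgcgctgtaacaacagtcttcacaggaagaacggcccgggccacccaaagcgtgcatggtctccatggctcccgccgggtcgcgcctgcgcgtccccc
The Hsd17b13 window held AGGTCA on the opposite strand, beginning 96 bases before the start, the Olfml1 window CCAAT on the opposite strand at 98, and the Ccdc30 window CCAAT at 136 and 107. The Dio1 window held none of the 4 motifs. Of 32851 promoter windows of this length, 14% held AGGTCA, 12.4% TATAAA, 6.02% CACGTG and 33.8% CCAAT. A match is a description of the letters and no evidence of a binding site, and the C3HeB/FeJ sequence was not used here.

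The called genes are grouped by role below for reading only. The share of each role among all genes tested was not counted, so nothing is read from the group sizes. Among enzymes, 6 genes were above all 5 strains: Hsd17b13, Cyp46a1, Agxt, Gatm, Them7 and Fahd2a. Hsd17b13 counts here by its tested probe set alone, since the other was below all 5 by -4.72. Cyp46a1, a cytochrome P450 best known for hydroxylating cholesterol in neurons, read 9.81, 10.28 and 9.66 on the C3HeB/FeJ arrays, and 5.48 to 9.52 with a median of 5.95 on the other 15. The groups did not overlap, but AKR/J came near, with a mean of 8.95 ± 0.516, then A/J at 6.88 ± 0.359, and the other 3 strains at 5.59 to 5.98. The difference from the mean of 5 was 3.27 (SE 0.164, adjusted p = 2.41e-10), the gap to AKR/J 0.97. In brain, where Cyp46a1 read 10.95 in C3HeB/FeJ and 10.85 to 11.17 elsewhere (-0.05), and in heart, kidney and lung the difference of Cyp46a1 did not pass (-0.05, -0.01 and -0.22). In testis it was higher by 0.35 (adjusted p = 0.0058), at 7.29 against 6.55 to 7.22, without being apart. The Cyp46a1 call held under all 26 alternative settings.

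Agxt, the peroxisomal aminotransferase that removes glyoxylate, was higher by 0.75 (SE 0.0506, adjusted p = 1.12e-08) with tight replicates, at 12.29, 12.30 and 12.26 against 11.26 to 11.91. Its neighbour on the chromosome, Mab21l4, was above all 5 as well, by 1.18 (SE 0.0946), at a dim level of 4.04 to 4.44 against 2.78 to 3.32. The genes on either side of this pair, Kif1a (0.13) and Sned1 (0.21), did not pass. Them7, a thioesterase superfamily gene, differed by 0.88 (SE 0.0830), Gatm, which makes the creatine precursor, by 0.44 (SE 0.0856) and Fahd2a by 0.39 (SE 0.0514). Gatm overlapped the other arrays, and the calls of Gatm and Them7 held in 3 and 5 of the 18 fits that left out 1 array.

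Transporters, channels and a receptor made up 5 of the genes above: Slc26a1, Aqp4, Slc44a1, Kcnt2 and Grm8. Slc26a1, a sulfate and oxalate exchanger of the hepatocyte and kidney tubule, read 9.59, 9.12 and 9.46 in C3HeB/FeJ and 5.85 to 8.84 elsewhere, with C57BL/6J nearest at 8.76 ± 0.0916 and AKR/J farthest at 6.01 ± 0.143. The difference was 2.19 (SE 0.0941, adjusted p = 2.77e-11), and its second probe set gave 2.40 (SE 0.105). Slc26a1 was apart in kidney too, at 9.50 ± 0.0910 against 6.68 to 8.87. Aqp4, a water channel, read 5.83, 6.28 and 6.02 against 3.36 to 5.41, a difference of 2.09 (SE 0.101), with DBA2/J nearest at 5.20 ± 0.204. Its second probe set was apart by 3.07 (SE 0.154), and the third differed by 0.29 (SE 0.0791) without being apart. In heart Aqp4 was above all 5 by 1.46, and in kidney it differed by 1.57 without being apart. Slc44a1, a choline transporter, differed by 0.48 (SE 0.0584), and the dim genes Kcnt2, a potassium channel, and Grm8, a glutamate receptor, by 0.64 and 0.69.

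Genes of cell junctions and the actin cytoskeleton gave 7 of the genes above: Ssh1, Fmn1, Amotl1, Mpp7, Cldn2, Arhgap44 and Cdhr5. Genes of similar roles also lay below all 5: Cadm4 (-2.09), Myo7a (-0.87), Lin7c (-0.44 on its tested probe set) and Actn4 (-0.35). Ssh1, a phosphatase that activates cofilin, read 6.94, 7.37 and 6.81 against 5.26 to 6.10 with a median of 5.69. The groups did not overlap (difference 1.30, SE 0.110, adjusted p = 2.67e-07), on the 1 probe set described above. Fmn1, a formin that builds actin filaments, differed by 1.27 (SE 0.164) and was lowest in AKR/J (3.76 ± 0.214). Amotl1, of the angiomotin family, differed by 0.93 (SE 0.0542), with arrays at 7.77 to 7.99 against 6.81 to 7.17. Cldn2, the pore-forming claudin of liver and kidney, differed by 0.50 (SE 0.0833), Mpp7, a polarity scaffold, by 0.75 (SE 0.0733) and Arhgap44, a GTPase-activating protein, by 0.84 (SE 0.0880). Cldn2 kept its call in 6 of the 18 fits that left out 1 array. Cdhr5, a protocadherin of the brush border, had the smallest difference, 0.32 (SE 0.0572), and kept its call in 3 of the 18 fits that left out 1 array.

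Secreted and surface proteins gave 5 more: Olfml1, Col4a5, Cd47, Wnt2 and Sema4g. Col4a5, a basement membrane collagen chain, differed by 1.24 (SE 0.0795) at a dim level. Olfml1, a secreted olfactomedin-like protein, read 8.89, 8.50 and 8.57 in C3HeB/FeJ and 6.91 to 7.84 with a median of 7.46 elsewhere. The other 5 strain means lay close together, at 7.13 to 7.53, and the groups did not overlap (difference 1.26, SE 0.122, adjusted p = 1.4e-06). Cd47, the surface signal that restrains engulfment by macrophages, was higher by 0.49 (SE 0.0539), although 2 of its 4 other probe sets, at levels of 8.73 and 8.75, differed by -0.24 (SE 0.0726) and -0.14 (SE 0.0656) and did not pass. Wnt2, a ligand of liver endothelium, differed by 0.43 (SE 0.0819) and Sema4g by 0.44 (SE 0.0637). Wnt2 kept its call in 3 of the 18 fits that left out 1 array, Rab32 in 5 and Sema4g in 7. The last 7 genes above were Tspyl4 (1.31, SE 0.115), the splicing regulator Mbnl3 (1.10, SE 0.103), the transcription cofactor Dach2 (1.12, SE 0.109), 9630013D21Rik (1.02, SE 0.0972), the histone deacetylase complex gene Sap130 (0.50, SE 0.0764), the small GTPase gene Rab32 (0.44, SE 0.0723) and Mab21l4. Mbnl3 (5.08 against strain means of 3.77 to 4.32) and Dach2 (4.69 against 3.40 to 3.99) were dim.

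**Figure D2:**
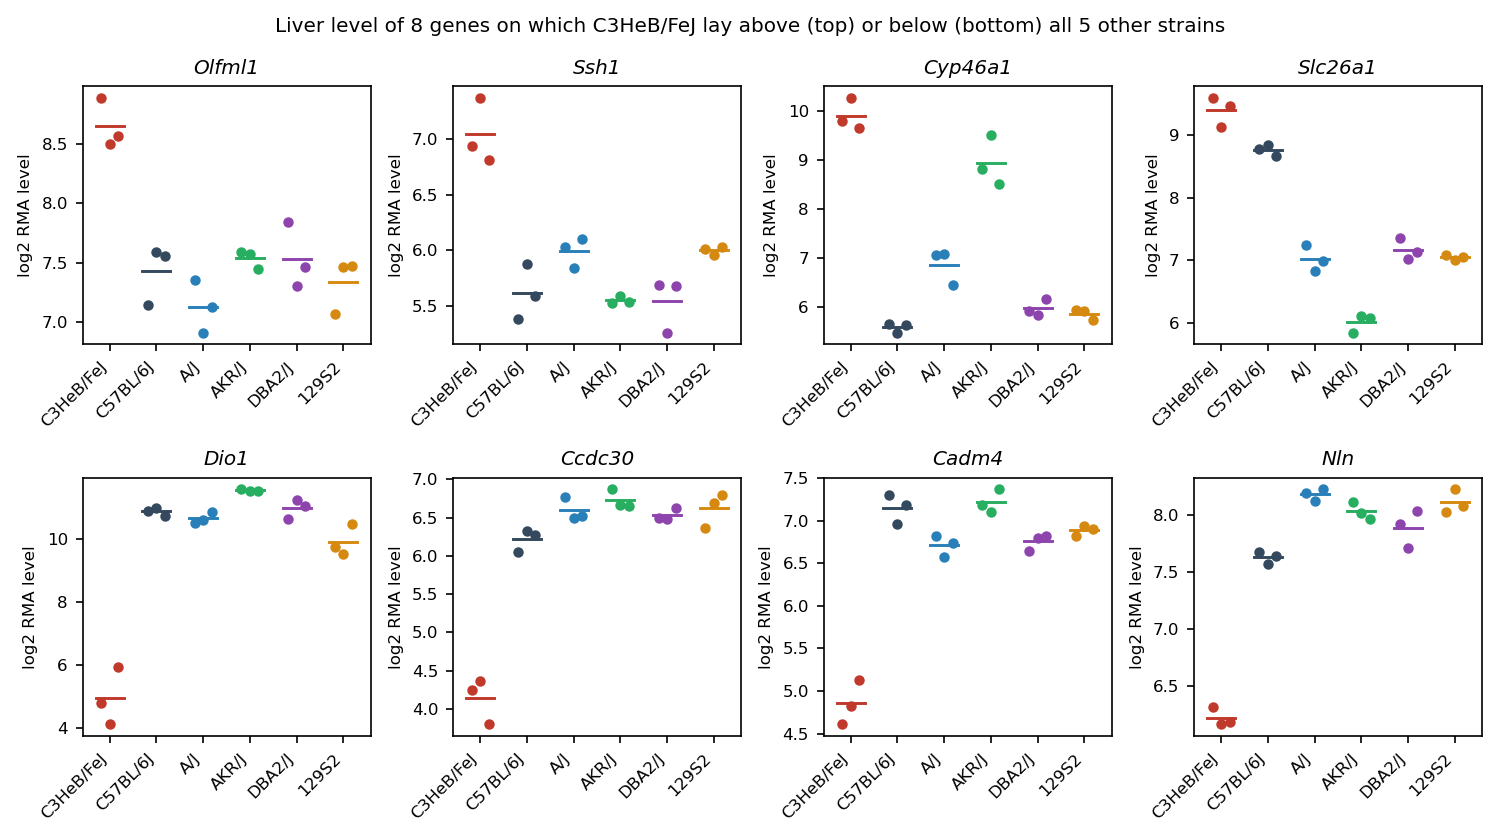
Log2 RMA level of 8 genes on each liver array (points) with strain means (lines), n = 3 arrays per strain, each panel on its own scale. The red C3HeB/FeJ points lie above every other point for Olfml1, Ssh1, Cyp46a1 and Slc26a1 and below every other point for Dio1, Ccdc30, Cadm4 and Nln.

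Below all 5 strains, the genes after Dio1 with the widest gaps were Ccdc30, Cadm4, Nln, C730027H18Rik, Plekhb1 and Kctd13. Ccdc30, a coiled-coil gene, read 4.25, 4.36 and 3.80 in C3HeB/FeJ and 6.05 to 6.87 with a median of 6.52 elsewhere (difference -2.40, SE 0.105, adjusted p = 2.87e-11). Of its 6 other probe sets 1 was also below all 5 (-0.74, SE 0.0922) and the others, at levels of 2.75 to 4.23, did not pass. Cadm4, an adhesion molecule of the immunoglobulin superfamily, read 4.61, 4.82 and 5.13 against 6.58 to 7.37 with a median of 6.90 (difference -2.09, SE 0.0907, adjusted p = 2.77e-11). Neither gene overlapped the other strains. In heart Cadm4 went the other way, above all 5 strains at 8.57 ± 0.0285 against 7.22 to 7.71.

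Nln encodes neurolysin, a metallopeptidase that cleaves neurotensin and other short peptides. It read 6.31, 6.16 and 6.18 in C3HeB/FeJ and 7.57 to 8.23 with a median of 8.03 elsewhere, with no overlap (difference -1.75, SE 0.0656, adjusted p = 4.98e-12). The other Nln probe set was lower by -0.68 (SE 0.0828) without being apart, at 5.98 against 6.26 in C57BL/6J, the nearest strain. Plekhb1, a pleckstrin homology gene, read 6.40, 6.47 and 6.98 against 7.03 to 9.25 with a median of 8.46 (difference -1.84, SE 0.208, adjusted p = 9.93e-06). Its groups nearly touched, and the call held in 14 of the 18 fits that left out 1 array. Kctd13, a substrate adaptor of the cullin ligases, differed by -1.13 (SE 0.0926) and C730027H18Rik by -1.59 (SE 0.116). Kctd13 was also below all 5 strains in brain, heart, kidney and lung.

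Metabolic genes below all 5 were As3mt, Aldh3a2, Acot11, Pctp, Entpd5 and Sfxn2, besides Dio1, Nln and the adenylyl cyclase gene Adcy7. As3mt, which methylates arsenic for excretion, read 7.09, 6.29 and 6.66 against 7.35 to 8.60 (difference -1.34, SE 0.129, adjusted p = 1.4e-06). Aldh3a2, which oxidises fatty aldehydes, read 8.24, 8.67 and 8.06 against 8.84 to 10.32 (difference -1.22, SE 0.121, adjusted p = 1.98e-06), with A/J highest at 10.20 ± 0.141. Acot11, an acyl-CoA thioesterase, read 5.45, 5.10 and 4.91 against 5.70 to 7.11 (difference -1.27, SE 0.126, adjusted p = 1.95e-06). None of the 3 overlapped. The other Acot11 probe set was lower by -0.59 (SE 0.111) without being apart, at 5.51 against 5.65 in DBA2/J, the nearest strain. Pctp, a phosphatidylcholine transfer protein, varied among the C3HeB/FeJ animals, at 8.24, 8.87 and 7.71 against 8.78 to 9.51, and overlapped (difference -0.91, SE 0.166). Entpd5, a nucleotidase of the endoplasmic reticulum, differed by -0.42 (SE 0.0541) and the mitochondrial carrier gene Sfxn2 by -0.54 (SE 0.0604). Entpd5 kept its call in 5 of the 18 fits that left out 1 array.

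The remaining genes below, the macrophage markers and Colec12 aside, had various roles. Sparcl1, a matricellular protein gene, differed by -1.19 (SE 0.130), Tmem71 by -1.13 (SE 0.121), the unconventional myosin gene Myo7a by -0.87 (SE 0.0812), Adcy7 by -0.76 (SE 0.110) and Zfp839 by -0.74 (SE 0.128). Tmem98, Tpgs2, Arap3, Tbc1d13, the ubiquitin ligase adaptor Spop, the chaperone cofactor Sil1, the actin crosslinker Actn4 and Rab39b differed by -0.68 to -0.31. Rab39b was dim in every strain, at 4.07 against strain means of 4.34 to 4.45, and its other probe set differed by 0.00. Tmem71 (3.67 against 4.29 to 5.03) and Adcy7 (4.16 against 4.75 to 5.21) were dim as well. Actn4 kept its call in 4 of the 18 fits that left out 1 array and Zfp839 in 1. Of the 31 genes, 22 had every other strain mean at 6 or more and 16 had a C3HeB/FeJ mean under 6.

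Macrophage genes formed the one group of cell type markers with several members below all 5 strains. Of 14 Kupffer cell and macrophage markers, 3 were below all 5 (Cd163, Lyz2 and Csf1r), 6 were lower than the mean of 5 (beside 2.96% of all genes) and none was higher, and 13 had a negative difference, with a median of -0.37 against 0.00424 for all genes. Cd163, the haemoglobin scavenger receptor, read 5.89, 6.06 and 5.96 against 6.62 to 7.77 (difference -1.08, SE 0.0953, adjusted p = 4.83e-07). Lyz2, macrophage lysozyme, read 8.01, 8.37 and 8.31 against 8.61 to 9.86 (difference -0.81, SE 0.0839, adjusted p = 3.32e-06), and Csf1r, the growth factor receptor of macrophages, 9.55, 9.80 and 9.93 against 10.03 to 11.13 (difference -0.68, SE 0.0908, adjusted p = 6.91e-05). None of the 3 overlapped the other strains. Lyz2 and its near-identical neighbour Lyz1, which differed by -0.75, may share signal. Cd163 and Lyz2 kept their calls without any single array, Csf1r in 4 of 18 such fits. Of the 3, Csf1r was also below all 5 strains in kidney (-0.64). In liver the 2 other Csf1r probe sets were lower by -0.58 (SE 0.0883) and -0.35 (SE 0.0935), and neither was apart from all 5. On the second of these AKR/J, at 7.81, lay under C3HeB/FeJ, at 7.88.

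The other 3 markers that passed were Adgre1 (-0.50, SE 0.0878), Vsig4 (-0.48, SE 0.107) and C1qc (-0.45, SE 0.107). Clec4f and Timd4, which mark resident Kupffer cells, differed by -0.29 (SE 0.0910) and -0.20 (SE 0.108) and did not pass, and Cd68 by 0.04 (SE 0.114). The mean of all 14 markers was 7.70, 7.86 and 8.02 on the C3HeB/FeJ arrays and 7.88 to 9.10 on the others, so the arrays overlapped. C57BL/6J was highest (8.57 to 9.10). Measured against the 4 strains without C57BL/6J, 4 of the 14 were lower, none was higher and the median was -0.18. Colec12, a scavenger receptor outside the list and not counted here as a macrophage gene, was below all 5 by -0.91 (SE 0.129). Ptprc, the leukocyte surface phosphatase, was lower by -0.68 (SE 0.0882) without being apart. MHC class II genes, which macrophages and B cells express, were lower in 5 of 11 and higher in none. H2-Aa, H2-Ab1, H2-Eb1 and Cd74 differed by -1.27, -1.33, -1.08 and -1.07, with AKR/J always nearest. C3HeB/FeJ and AKR/J share the H2 k haplotype, and whether sequence differences of H2 genes under the probes affect these values was not tested. In bulk tissue, fewer cells of a type and less RNA per cell cannot be told apart.

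**Figure D3:**
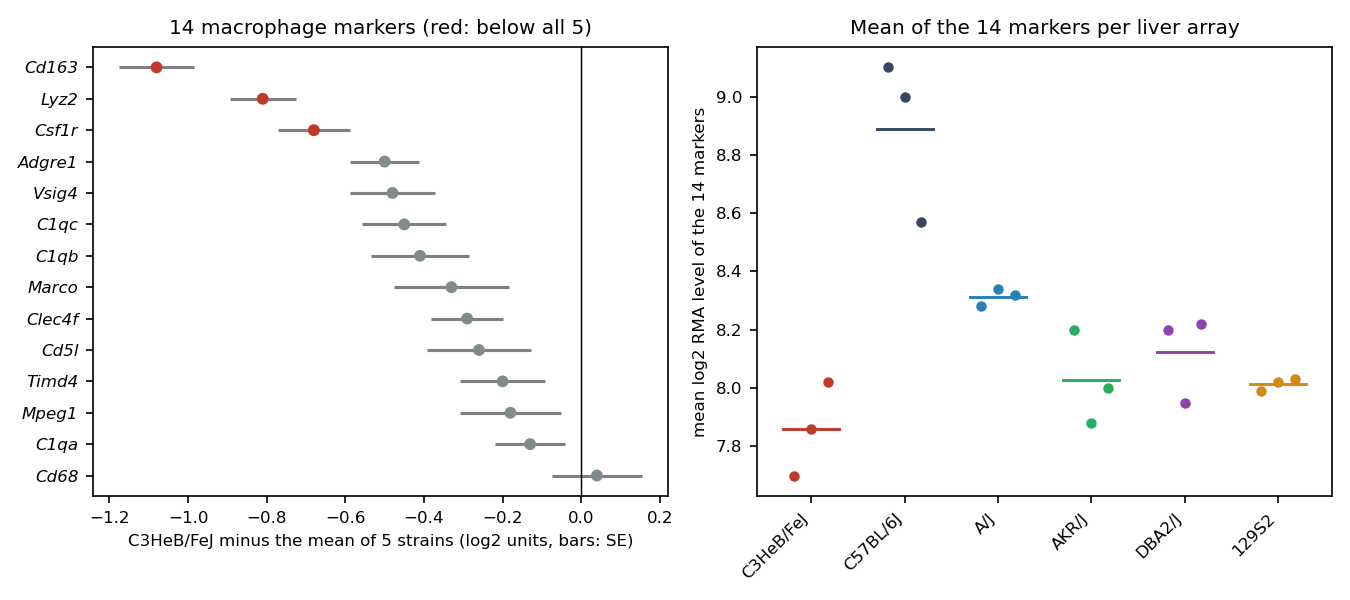
Left, C3HeB/FeJ minus the mean of 5 strains for 14 macrophage markers in liver (points, bars SE), with the 3 genes below all 5 in red. Right, the mean log2 level of the 14 markers on each liver array with strain means (lines, n = 3), at 7.70 to 8.02 in C3HeB/FeJ and 7.88 to 9.10 in the other strains.

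Markers of other liver cells moved little. None of 9 hepatocyte, 10 stellate cell, 7 bile duct, 8 neutrophil and 4 adipocyte markers passed. Of 10 sinusoidal endothelial markers Stab2 was higher (0.43, SE 0.0888), of 13 lymphocyte markers only Ptprc was lower, and of 5 erythroid markers Alas2 was higher (0.39, SE 0.0831). Differences were negative for 11 of 13 lymphocyte markers (median -0.04) and 7 of 10 stellate cell markers (median -0.14). They were negative for 4 of 9 hepatocyte, 3 of 10 endothelial, 3 of 7 bile duct and 3 of 8 neutrophil markers. Exocrine pancreas markers gave no call in 5, and of 6 gallbladder and intestine markers Fabp2 was higher (0.55, SE 0.104) and Lgals4 lower (-1.02, SE 0.236), neither apart from all 5.

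Among lists of liver functions, chosen with earlier results of these data known, Aldh3a2 was the only member apart from all 5. The other differences were shared with at least 1 strain, or did not pass against it. The counts of members that follow stand beside 3.92% of all genes higher and 2.96% lower than the mean of 5, and no list was tested against these shares. Glutathione S-transferase genes, which conjugate glutathione to reactive compounds, were lower in 9 of 24 and higher in 1, with a median of -0.13. Gstt2 (-0.67, SE 0.113), Gstt3 (-0.69, SE 0.105) and Gsta2 (-0.82, SE 0.152) were among them, and none was below all 5. PPAR alpha targets, genes of fatty acid oxidation, were lower in 7 of 27 and higher in 1 (Fgf21, 1.05, SE 0.309), with a median of -0.12. Cyp4a14, an omega-hydroxylase, read 4.30 in C3HeB/FeJ, near DBA2/J (4.67) and AKR/J (4.68) and far under 129S2 (11.21). Cd36, the fatty acid translocase, read 5.85 against strain means of 6.41 to 7.46, and was not apart from all 5.

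Cytochrome P450 genes passed in both directions, 9 higher and 8 lower of 56, with a median of 0.00, and none of the 56 was apart (Cyp46a1 is not on this list). Cyp2c37 (11.63) was near DBA2/J (11.84) and C57BL/6J (11.72) and Cyp2c55 (8.40) near DBA2/J (8.44). Cyp2c23 was lower (-1.79, SE 0.118) and Cyp3a13 lower (-1.20, SE 0.0914), each beside A/J and DBA2/J. UDP-glucuronosyltransferase genes were higher in 2 and lower in 2 of 10, carboxylesterases higher in 3 and lower in 1 of 13, led by Ces1e (1.03, SE 0.136), sulfotransferases lower in 1 of 13 (Sult5a1), and aldehyde oxidase and dehydrogenase genes higher in 3 and lower in 1 of 23, the lower one being Aldh3a2.

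No gene of the lipid, bile acid, glucocorticoid, clock, glucose and iron lists that follow was apart from all 5. Fatty acid and triglyceride synthesis genes had the highest list median, 0.30, with 3 of 22 higher (Elovl3, Elovl5 and Pnpla3) and 1 lower (Lpin2, -0.88). Apolipoprotein and lipoprotein genes were higher in 3 of 23 and lower in none. Among them Lpl, lipoprotein lipase, read 10.24 against strain means of 8.42 to 9.27 (difference 1.49, SE 0.226, adjusted p = 0.000268). Its tested probe set was not apart, and another of its probe sets was (1.55, SE 0.225, C3HeB/FeJ 7.95 against 6.17 to 6.93). Cholesterol synthesis genes were lower in 1 of 19 (Hmgcs1), and bile acid genes higher in 2 and lower in 1 of 24. Hmgcs1 read 11.96, 10.61 and 12.01 in C3HeB/FeJ against 11.13 to 12.92 elsewhere, so only array 2 lay outside that range. C3HeB/FeJ array 2 also read away from arrays 1 and 3 for Pnpla3 (6.44, 5.06 and 6.09) and Angptl4 (8.25, 10.22 and 9.03). Glucocorticoid-responsive genes were lower in 4 of 17 (Klf9, Per1, Klf15 and Angptl4), clock genes higher in 1 (Arntl) and lower in 2 (Per1 and Ciart) of 18 with a median of -0.16, gluconeogenesis and glycolysis genes higher in 1 and lower in 2 of 15, and heme and iron genes higher in 3 and lower in 2 of 23, led by Alas1 (-1.57, SE 0.447). Clock genes follow the hour of day, and the hour of sampling is not in the labels.

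Plasma protein and defence genes were mixed. Complement genes were higher in 5 of 21, among them Hc (0.99, SE 0.0944), which encodes a late complement component known to be lost in A/J, AKR/J and DBA2/J, and C9 (0.60, SE 0.101), and lower in 2, Cfhr2 (-1.33, SE 0.134) and C1qc. Serpins were higher in 1 and lower in 2 of 40, coagulation genes higher in 1 and lower in 1 of 19, and acute-phase genes higher in 1 of 22 (Apcs, 0.69). Interferon-stimulated genes gave 1 higher and 1 lower of 31, guanylate-binding and related GTPase genes 1 and 1 of 11, and PYHIN genes 1 higher (Mndal) and 2 lower of 8. MHC class I and neighbouring genes were higher in 2 and lower in 3 of 19, a list that also holds H2-DMa of class II. The widest downward difference of a gene not apart was that of H2-D1, which read 8.28 in C3HeB/FeJ and 8.14 in AKR/J, strains that share the H2 k haplotype, against 11.71 to 12.37 in the rest.

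Other lists gave lysosomal hydrolases higher in 4 and lower in 2 of 30, oxidative phosphorylation genes lower in 3 of 90 (3.33%, near the 2.96% of all genes), ribosomal protein genes higher in 3 and lower in 1 of 46, heat-shock genes lower in 1 of 13, endoplasmic reticulum stress genes higher in 2 and lower in 2 of 21, growth hormone and IGF genes lower in 1 of 15, and no call among 13 major urinary protein and lipocalin genes. Of 11 genes known to vary in C3H mice, Hc was the only one that passed. Sp110, a gene of the C3HeB/FeJ tuberculosis susceptibility locus, differed by -0.06 (SE 0.0708), Tlr4, the endotoxin receptor altered in the C3H/HeJ substrain, by 0.12 (SE 0.110), Gusb by 0.13 (SE 0.0699) and the retinal gene Pde6b by 0.16 (SE 0.0689). The median differences of all these lists moved by at most 0.02 under quantile normalization or equal array medians.

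The arrays of the other 5 tissues did not choose these genes. By the sample names the C3HeB/FeJ animals were the same ones in every tissue, so these arrays add no further animals of this strain. Of the 61, 24 were apart from all 5 strains in the same direction in at least 1 other tissue, 9 of the 30 above and 15 of the 31 below. By tissue, the genes above were apart the same way in brain for 2 of 30, heart 4, kidney 7, lung 2 and testis 2, where 0.126%, 0.143%, 0.495%, 0.286% and 0.253% of all genes were above all 5. The genes below were apart the same way in brain for 6 of 31, heart 5, kidney 10, lung 10 and testis 5, where 0.165%, 0.0769%, 0.467%, 0.313% and 0.368% of all genes were below all 5. Only Cadm4 was apart in the opposite direction anywhere, in heart.

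On their tested probe sets, Ssh1 was above, and Nln and Lin7c below, all 5 strains in all 6 tissues. The other 3 Ssh1 probe sets did not pass in liver, and 1 other Lin7c probe set was higher in C3HeB/FeJ testis, as described above. 9630013D21Rik was apart in 5 tissues, all but brain, and Kctd13 in 5, all but testis. Nln read 7.51 ± 0.0572 in C3HeB/FeJ brain against 8.68 to 8.84, 6.17 ± 0.0736 in heart against 6.79 to 7.09, 7.33 ± 0.0790 in kidney against 8.31 to 8.70, 7.05 ± 0.0356 in lung against 8.46 to 8.70, and 5.45 ± 0.174 in testis against 6.23 to 6.61. The C3HeB/FeJ mean for Nln was the lowest in every tissue. Tmem71, Zfp839, Ccdc30, Tpgs2 and Tbc1d13 were each below all 5 in 3 other tissues.

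Lung array C3HeB/FeJ 3 stood apart from the rest. Its 4 adipocyte markers averaged 9.99, the next array 8.78 and the median array 7.66, and 5 skeletal muscle genes, chosen after values were seen, averaged 10.85 against 6.75 and 6.06. Without it 2 of the 30 and 9 of the 31 genes were apart the same way in lung, beside 0.203% of all genes above and 0.148% below. Ccdc30 and Sil1 lost their lung call, and the count among the 31 went from 10 to 9, so another gene of the 31 gained one.

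The difference between C3HeB/FeJ and the other strains in liver was also set against the mean of the same difference in the other 5 tissues. This passed for 53 of the 61, and for 8.19% of all genes. The liver arrays that chose the 61 genes are one side of this contrast, which tilts it toward a larger liver difference, so nothing is read from the count and the values are a description. The liver difference was the larger for 52 and the smaller for Lin7c (0.51, SE 0.0893). Wide departures were those of Dio1 (-5.27, SE 0.150), Cyp46a1 (3.27, SE 0.114), Hsd17b13 on its tested probe set (3.92, SE 0.105) and Cadm4 (-2.27, SE 0.0844), and Aldh3a2 differed by -1.22 in liver and by -0.10 to 0.11 in the other tissues. For 8 genes it did not pass: 9630013D21Rik, Kctd13, Tmem71, Zfp839, Arap3, Sfxn2, Tbc1d13 and Rab39b. Without lung array C3HeB/FeJ 3, 8.14% of all genes and 51 of the 61 passed, and Ssh1 and Wnt2 no longer did.

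**Figure D4:**
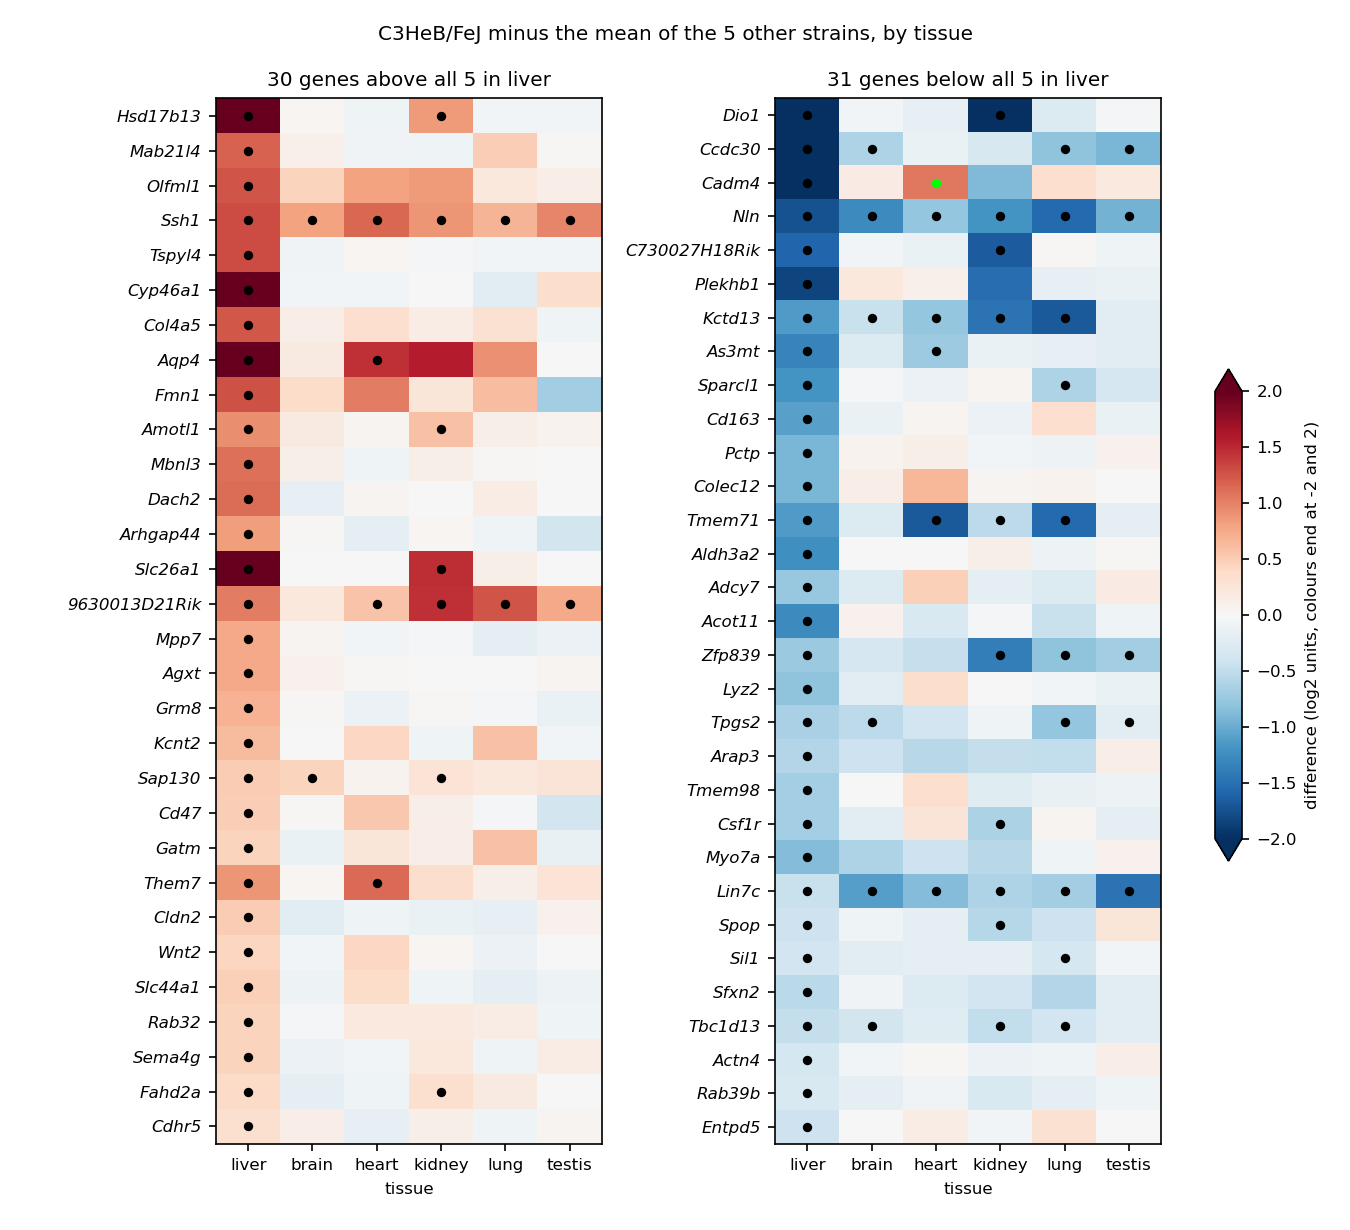
Difference between C3HeB/FeJ and the mean of the 5 other strains (log2 units, colours end at -2 and 2) for the 30 genes above and 31 below all 5 strains in liver (rows) in each tissue (columns). Each gene is shown by its tested probe set. Black dots mark tissues where the gene was apart from all 5 in the same direction, the green dot Cadm4 in heart, which was above all 5, and Ssh1, Nln and Lin7c carry dots in all 6 tissues.

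Some of the 61 genes lay near each other on the chromosome. Agxt and Mab21l4 were adjacent, both above. Sfxn2 and As3mt, both below, had 3 tested genes between them, and Acot11 and Dio1, both below, had 7. The other 3 near pairs went opposite ways: Sparcl1 (below) and the tested probe set of Hsd17b13 (above) with 2 genes between them, Colec12 (-0.91) and Mpp7 (0.75) with 5, and Tpgs2 (-0.65) and Sap130 (0.50) with 6. How often tested genes lie this near each other was not tested, so nothing is read from the number of pairs. On the X chromosome lay 5 of the 61 genes, 4 of them above, and 617 of the 18194 genes tested.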

How the data were processed

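The deposited table holds log2 expression values made by the authors with RMA, per the submitters' processing notes; the RMA version, and whether tissues were normalized together, are not given in the sources used here. Levels were therefore compared within a tissue, and tissues only through their differences between strains. Of 45101 probe sets, 64 controls, 932 that list several genes and 9160 that list none were not used, which left 34945 for 18194 genes. Platform annotation named the probe sets, and gene order and promoters came from RefSeq's tables (GRCm38.p6).

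Liver was fitted with limma 3.58.1 in R 4.3.3 (1 mean per strain, 18 arrays, empirical Bayes, Benjamini-Hochberg adjustment over all genes, threshold 0.05). Every SE and adjusted p in the text comes from it unless said otherwise. Other tissues were fitted alike, and liver was set against them over all arrays with the animal as a random block. Tables were made with Python 3.11.15, pandas 2.3.3 and numpy 2.4.6. The fit was tested on simulated data.

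Genes named by rule were those apart by at least 1 with a bright level (6 or more), 1 or more members of each gene list, and Sp110, Gusb, Tlr4 and Pde6b. The other genes apart from all 5 were named as members, and further list members and chromosomal neighbours were named after their values were seen. The members and lists were chosen with earlier results of these data known. Probe sequences and scan dates were not used here. Alternatives were another prior, a filter on dim genes, other choices of probe set, other scalings, all arrays in 1 fit, a replicate block and each liver array left out.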

Additional observations from a re-analysis of the deposited data

Results flagged for a closer look

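In 53 of the 61 genes the C3HeB/FeJ difference in liver departed from the mean of the same difference in the other 5 tissues, by limma's test of that departure over the arrays of all tissues. The liver values that chose the 61 genes are one side of this contrast, so a departure was largely fixed by that choice and nothing is read from the count. The values that follow are liver minus the other tissues, in log2 units, with no cause assigned. Among genes above all 5 strains in liver the widest departures were those of Hsd17b13 by 3.92 on its tested probe set (its other probe set was below all 5 strains in liver, by -4.72), Mab21l4 by 1.09, Tspyl4 by 1.34, Cyp46a1 by 3.27, Col4a5 by 1.07, Aqp4 by 1.26, Mbnl3 by 1.07, Dach2 by 1.11 and Slc26a1 by 1.87. Smaller ones were seen for Olfml1 by 0.77, Fmn1 by 0.96, Amotl1 by 0.73, Arhgap44 by 0.96, Mpp7 by 0.83, Agxt by 0.71, Grm8 by 0.74, Them7 by 0.50, Cldn2 by 0.60 and Slc44a1 by 0.50, and the smallest for Ssh1 by 0.40, Kcnt2 by 0.47, Sap130 by 0.25, Cd47 by 0.43, Gatm by 0.31, Wnt2 by 0.36, Rab32 by 0.36, Sema4g by 0.42, Fahd2a by 0.35 and Cdhr5 by 0.32.

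Among genes below all 5, Dio1 by -5.27, Ccdc30 by -1.84, Cadm4 by -2.27, C730027H18Rik by -1.21, Plekhb1 by -1.53, As3mt by -1.04, Cd163 by -1.08, Colec12 by -1.10, Aldh3a2 by -1.23 and Acot11 by -1.12 departed most. Next came Nln by -0.61, Sparcl1 by -0.98, Pctp by -0.93, Adcy7 by -0.74, Lyz2 by -0.80, Tmem98 by -0.65, Csf1r by -0.53, Myo7a by -0.56 and Entpd5 by -0.50, and then Tpgs2 by -0.25, Spop by -0.22, Sil1 by -0.18 and Actn4 by -0.33. For Lin7c the departure of 0.51 has the opposite sign to its liver difference, which was smaller than the mean of the other tissues. Without lung array C3HeB/FeJ 3, Ssh1 and Wnt2 no longer passed.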

How the results depend on the processing

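Of the 61 genes apart from all 5 strains, 22 kept their call in every one of the 26 alternative settings that tested them, and 30 kept it in all 18 fits without 1 liver array. With the arrays of all tissues in 1 fit the counts rose to 1143 higher and 844 lower than the mean of 5, and to 75 above and 48 below all 5 (56 of the 61 among them). By at least 1, a filter at a mean of 6 left 1 gene above and the mean of all probe sets left 2; gaps of at least 0.5 gave 16 above and 18 below, and of at least 2 gave 1 and 2. Counting each single-gene probe set, chosen after seeing the data, gave 63 above and 50 below.

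Without 1 array, 433 to 695 genes were higher and 369 to 559 lower than the mean of 5, 23 to 35 above and 18 to 30 below all 5, and 3 to 6 and 6 to 8 by at least 1. C3HeB/FeJ array 1 gave the 433 and the 18, with 39 of the 61 genes kept, and DBA2/J array 3 gave 19 below, with 42 kept. Zfp839 kept its call in 1 of the 18 fits and Gatm, Wnt2 and Cdhr5 in 3.

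The direction turned on the probe set brightest in liver for Hsd17b13 (-4.72), Ssh1 (-0.11), Adcy7 (0.03) and Arap3 (0.06), and for Hsd17b13 also on the mean of its probe sets (-0.33). Another prior, scaling or filter moved no other count of calls by more than 1.5 times. Animal numbers do not pair the strains: deviations of arrays with the same number correlated at -0.339 to 0.287 (26 pairs), those with different numbers at -0.291 to 0.237 (109 pairs). With the number as a replicate block 682 genes were higher, 534 lower, 27 above and 29 below all 5, 4 and 7 by at least 1, with 56 of the 61 kept. The test against other tissues passed 1437 genes without the animal block and 1155 of the brighter genes. Detection calls were not used here, so levels near the array medians are not shown to be above background.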

Other observations

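Some probe sets that did not represent their gene were apart from all 5 strains by at least 1 while the tested probe set was not. A Plcxd2 probe set was lower by -1.96 (SE 0.170), at 7.89, 8.91 and 8.76 against 9.89 to 11.02, and its tested probe set differed by -0.44 (SE 0.140). A 2810013P06Rik probe set was higher by 1.58 (SE 0.0863), at 6.83, 6.95 and 7.11 against 5.15 to 5.78, and the tested one differed by -0.07. Probe sets of Cnot4, a subunit of the deadenylase complex, Trappc13, of a vesicle tethering complex, and Qser1 were lower by -1.39 (SE 0.115), -1.56 (SE 0.125) and -1.30 (SE 0.101), where the tested ones differed by 0.04, -0.36 and 0.02. In all, 43 genes had a probe set apart from all 5 in liver although the tested one was not called.

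Several wide differences in C3HeB/FeJ liver were shared with 1 or more strains, which kept these genes out of the 61. Nlrp12, an innate immune receptor gene, read 3.92 in C3HeB/FeJ, 3.70 in DBA2/J and 3.56 in 129S2, against 8.08 to 9.34 in the others. Pdxdc1 read 5.77 and in DBA2/J 5.81, against 8.82 to 8.98. Corin, a protease gene best known from heart, read 6.00 and in DBA2/J 6.29, against 2.91 to 3.05. Tmem267 read 3.70, as in 129S2 (3.70) and near DBA2/J (3.78), against 6.53 to 7.05. Nnmt, a methyltransferase of nicotinamide, read 6.09 and in A/J 6.10. It read 7.27 to 7.84 in AKR/J, DBA2/J and 129S2, and 11.29 in C57BL/6J. Adgrv1 read 8.89 and in DBA2/J 8.80, against 5.81 to 7.30. Asic5 read 9.55, in A/J 9.56 and in 129S2 9.95, against 5.77 to 6.77 in the others.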
